A study of Mus musculus with 12 samples.

Results

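The genes examined were 10 integrin subunits of T cells, namely Itga1, Itga2, Itga4, Itga6, Itgae, Itgal, Itgav, Itgb1, Itgb2, and Itgb7. They were taken by name from the 25078 genes of the deposited count table. The libraries held donor T cells sorted from the liver of WT BALB/c recipients on day 6 after hematopoietic cell transplantation (HCT). The cells were sorted as H-2Kb+ TCRβ+ and as CD4+ or CD8+. The recipients were lethally irradiated and had been given C57BL/6 grafts, made of T cell-depleted bone marrow from WT mice and of T cells from WT, STAT3ko, or STAT3ko PD-1ko donors. STAT3ko donors carried floxed Stat3 and a CD4-Cre transgene, so that deletion follows the activity of the Cd4 promoter in the T cell lineage, and STAT3ko PD-1ko donors also lacked PD-1 from the germline. There were 12 libraries, 2 for each of the 3 genotypes in each of the 2 subsets, and each library combined lymphocytes from 3 recipients, so that the replicates are pools and not single mice. No group lacked PD-1 alone, so that the effect of PD-1 loss was measured only on a STAT3ko background. In what follows, a level is a TMM-normalized CPM, the count of a gene scaled to the library total, and a gene is called where its p, adjusted by Benjamini-Hochberg over all genes tested, was under 0.05 with edgeR's quasi-likelihood test.

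Integrins are surface receptors made of an alpha and a beta subunit, by which T cells hold on to vessel wall, matrix, and other cells, and they pass signals in both directions across the membrane. Itgal and Itgb2 together form LFA-1, which binds ICAM proteins on endothelium and antigen-presenting cells. Itga4 pairs with Itgb1 into a receptor for VCAM1 and fibronectin, or with Itgb7 into a receptor for MADCAM1 of gut vessels. Itgae, known as CD103, pairs with Itgb7 into a receptor for E-cadherin of epithelium. Itgb1 also joins Itga1 and Itga2, which bind collagens, and Itga6, which binds laminins. Itgav pairs with several beta subunits into receptors for vitronectin, fibronectin, and latent TGF-beta. A change of a shared beta subunit can thus bear on several receptors, which transcript levels alone do not resolve.

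On mm10, Itga1 (chromosome 13, 114958081 to 115101964) and Itga2 (chromosome 13, 114833081 to 114932100) lie next to each other on the minus strand with a gap of 25980 bases. Itga4 (79255426 to 79333114), Itga6 (71786939 to 71858427), and Itgav (83724397 to 83806917) are all on the plus strand of chromosome 2, and Itgb1 is on the plus strand of chromosome 8 from 128685654 to 128733579. Itgae lies on chromosome 11 from 73090583 to 73147449 (plus strand), Itgal on chromosome 7 from 127296260 to 127335137 (plus strand), Itgb2 on chromosome 10 from 77530370 to 77565708 (plus strand), and Itgb7 on chromosome 15 from 102215995 to 102231935 (minus strand). The exons of Itga4 share 1124 bases with exons of Cerkl in the GENCODE annotation on the opposite strand, which had 45 to 90 counts per library, and whether the counting used strand is not given in the sources used here. RefSeq promoter windows (GRCm38.p6, the assembly of mm10) matched 6 of the 10 genes. The 250 bases before the start are shown for the adjacent collagen-receptor genes Itga1 and Itga2, which both fell in STAT3ko PD-1ko T cells, and for Itga4 and Itgb1, whose levels were above WT in STAT3ko T cells. They run 5′ to 3′ along the gene, and capitals mark a RUNX motif (TGTGGT or its reverse complement ACCACA) or a GC box (GGGCGG or CCGCCC).
Itga1, chr13:115101965-115102214, minus strand: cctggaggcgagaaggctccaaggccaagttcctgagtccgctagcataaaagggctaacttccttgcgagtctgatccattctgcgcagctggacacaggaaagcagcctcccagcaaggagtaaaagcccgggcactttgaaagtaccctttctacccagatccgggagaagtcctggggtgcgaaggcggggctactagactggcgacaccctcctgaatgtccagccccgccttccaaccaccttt
Itga2, chr13:114932101-114932350, minus strand: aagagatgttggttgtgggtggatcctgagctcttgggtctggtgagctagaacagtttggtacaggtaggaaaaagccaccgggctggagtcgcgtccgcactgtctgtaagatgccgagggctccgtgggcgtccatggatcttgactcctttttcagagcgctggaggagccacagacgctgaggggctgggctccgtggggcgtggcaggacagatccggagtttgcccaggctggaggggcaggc
Itga4, chr2:79255176-79255425, plus strand: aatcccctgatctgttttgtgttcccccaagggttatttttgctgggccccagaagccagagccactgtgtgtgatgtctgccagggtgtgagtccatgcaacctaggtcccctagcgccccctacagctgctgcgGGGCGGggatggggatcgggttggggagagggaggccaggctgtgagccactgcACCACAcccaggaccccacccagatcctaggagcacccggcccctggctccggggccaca
Itgb1, chr8:128685404-128685653, plus strand: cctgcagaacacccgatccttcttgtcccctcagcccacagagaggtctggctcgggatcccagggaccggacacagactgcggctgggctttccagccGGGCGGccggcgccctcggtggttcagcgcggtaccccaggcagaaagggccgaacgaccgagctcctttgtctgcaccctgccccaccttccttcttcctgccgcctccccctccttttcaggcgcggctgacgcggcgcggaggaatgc
The windows of Itga1 and Itga2 held neither motif, that of Itga4 held 1 of each, and that of Itgb1 held 1 GC box. None of the 6 windows held the STAT motif TTCNNNGAA, which reads the same on both strands. Among all 32851 promoter windows of this length, 7.02% held the STAT motif, 14.0% the RUNX motif, and 32.7% the GC box. A match describes letters in a window, and nothing about binding was measured.

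The libraries held 21676125 to 24551477 counts on genes, and all 10 integrin genes passed the filter on low counts in every fit. At this depth, the precision was set by the difference between the replicate pools of a group, except for Itgae, whose counts were low in STAT3ko PD-1ko libraries. Stat3 was at 369 and 467 CPM in WT, 139.9 and 164 in STAT3ko, and 157 and 219 in STAT3ko PD-1ko CD4+ T cells, and at 397 and 384, 149 and 136, and 154 and 235 in CD8+ T cells. Pdcd1, which encodes PD-1, was at 55.1 and 26.0 CPM in STAT3ko PD-1ko CD4+ T cells and at 93.6 and 65.6 in STAT3ko PD-1ko CD8+ T cells, against 235 to 454 in the other groups. Both targeted genes were therefore lower in every library labelled as lacking them than in any WT library of the same subset. Cd4 was at 1242 to 1887 CPM in CD4+ and at most 2.73 CPM in CD8+ libraries, and Cd8a at 589 to 1339 CPM in CD8+ and at most 5.64 CPM in CD4+ libraries.

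The sorted cells carried T cell transcripts, and most markers of other liver cells were near 0. The 8 T cell markers Cd3d, Cd3e, Cd3g, Cd247, Lck, Thy1, Cd2, and Cd5 summed to 4488 to 6309 CPM, with Thy1 the most abundant. The sums over 7 hepatocyte markers were 1.08 to 3.80 CPM, over 6 platelet markers 0.518 to 2.18 CPM, and over 6 granulocyte markers 0.0432 to 1.23 CPM, with Elane at 0 in all libraries. The 5 endothelial markers summed to 0.424 to 6.49 CPM. Egfl7, one of them, was called higher in STAT3ko PD-1ko than in WT in both subsets, at 4.95 and 5.51 against 1.16 and 0.879 CPM in CD8+ T cells. The 5 B cell markers summed to 1.63 to 14.7 CPM, most of it Cd79b, with Ms4a1 at 0 in all libraries. Cd79b was called lower in CD8+ STAT3ko PD-1ko than in WT T cells, at 5.92 and 5.10 against 14.5 and 10.6 CPM. The 9 macrophage markers, led by C1qa, summed to 6.83 to 9.95 CPM in replicate 2 of the WT and STAT3ko groups of both subsets, against 0.518 to 1.55 CPM in the other 8 libraries. The 5 NK cell markers summed to 11.3 to 21.1 CPM in CD4+ T cells, and in CD8+ T cells to 56.4 and 62.5 CPM in WT, 34.1 and 61.3 CPM in STAT3ko, and 25.3 and 13.1 CPM in STAT3ko PD-1ko. Most of this sum was Klrb1c, which some T cells also express, whereas Klra8 was at 0 in all libraries and Ncr1 at 0.286 CPM or less in CD8+ T cells. Against WT, 2 of the 3 tested NK cell markers (Klrb1c and Klre1) were called lower in CD8+ and 0 in CD4+ STAT3ko PD-1ko T cells (edgeR, with 0 at an unadjusted p under 0.05 in CD4+). T cell genes themselves moved with the genotype. In STAT3ko PD-1ko as compared with WT CD8+ T cells, 4 of the 8 T cell markers were called lower (Cd2, Cd247, Cd3d, and Lck), where 8.21% of all genes were, the list summed to 4488 and 4525 against 6033 and 5977 CPM, and Cd8a was at 595 and 589 against 1191 and 1339 CPM. In CD4+ T cells, 1 of the 8 was called lower (Cd2), or 4 in a fit with the replicate number as a block, where 5.65% and 12.2% of all genes were called lower. The sum was 5222 and 5022 against 6309 and 5882 CPM, and Cd4 was called lower too, at 1323 and 1242 against 1844 and 1881 CPM. With the replicate block, Cd8a was called higher in STAT3ko PD-1ko than in WT CD4+ T cells (2.21, edgeR, adjusted p = 0.00883). Against STAT3ko, 3 of the 8 T cell markers were called lower in CD8+ STAT3ko PD-1ko T cells, where 8.05% of all genes were. There, 2 CD8 T cell markers, 1 B cell marker, and 1 NK cell marker were lower, and 1 hepatocyte and 1 endothelial marker higher. In CD4+ T cells, 0 T cell markers and 1 NK cell marker were called lower than in STAT3ko, and 1 endothelial marker higher. Of all genes, 5.03% were called lower and 6.05% higher there. With the replicate block, all 3 CD4 T cell markers (Cd4, Cd40lg, and Zbtb7b) and the macrophage marker Clec4f were also called lower, and Cd8a higher. That fit called 12.8% of all genes lower and 13.2% higher. The part of these shifts of marker genes in the integrin results was not tested. In these bulk samples, fewer cells of a type and less RNA per cell cannot be told apart.

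Per kb of exon, the genes of LFA-1, Itgb1, Itgb7, and Itga4 stood more than 5 times above the other 5 genes in every group. In WT CD4+ T cells the level per kb was 457 ± 91.9 CPM for Itgb1, 333 ± 1.56 for Itgb2, 321 ± 25.3 for Itgb7, 314 ± 13.9 for Itgal, and 138 ± 10.2 for Itga4 (SD, n = 2). It was 20.5 ± 5.09 for Itga1, 19.5 ± 1.92 for Itga6, 14.1 ± 1.47 for Itga2, 11.4 ± 2.87 for Itgav, and 1.83 ± 0.182 for Itgae. The range of the Itgb7 libraries covered those of Itgb2 and Itgal, whereas Itgae was the least abundant gene in all 6 groups. Among the 7 alpha subunits, Itgal held 60.4% ± 2.43 and Itga4 26.7% ± 2.07 of the summed level per kb in WT CD4+ T cells (SD, n = 2). The share of Itga4 was 40.0% ± 3.77 in STAT3ko and 29.8% ± 2.15 in STAT3ko PD-1ko CD4+ T cells. In CD8+ T cells it was 36.7% ± 0.957 in WT, 44.3% ± 1.41 in STAT3ko, and 32.4% ± 4.40 in STAT3ko PD-1ko. The share of Itga4 was therefore highest in STAT3ko in both subsets. The shares of Itga1 and Itga2 together were small throughout, with Itga1 at 6.48% ± 0.289 in WT CD8+ and at 1.30% ± 0.0573 in STAT3ko PD-1ko CD4+ T cells.

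**Figure D1:**
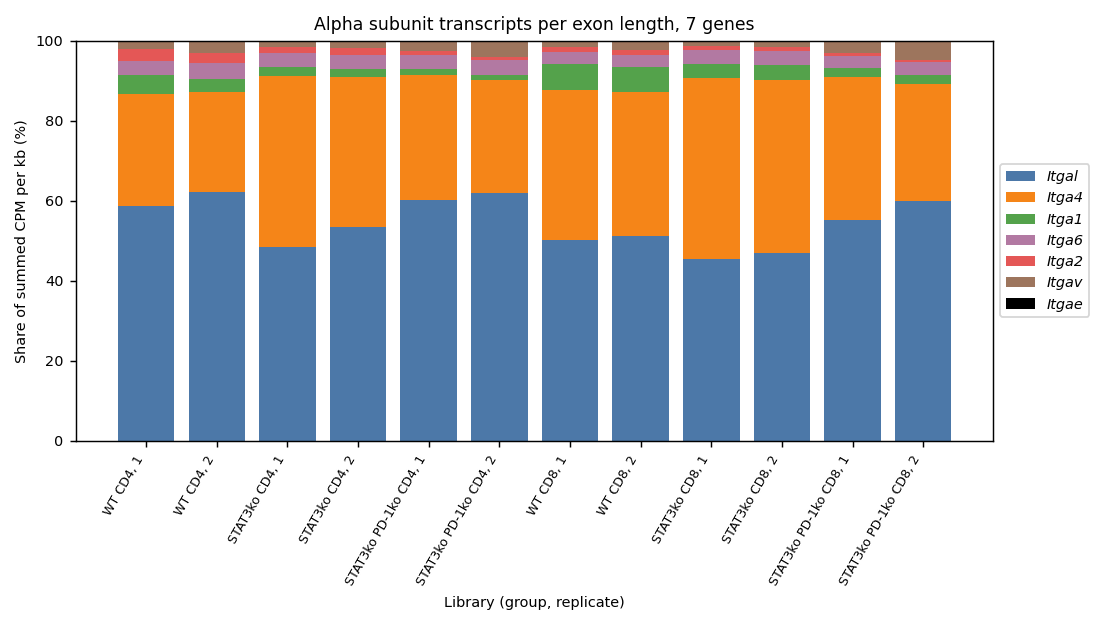
Share of each alpha subunit in the summed CPM per kb of exon of 7 alpha genes, as a stacked bar in percent for each of the 12 libraries. Itgal and Itga4 fill most of each bar, and the Itga4 share is larger in STAT3ko bars (mean 40.0% in CD4, 44.3% in CD8) than in the other genotypes of the same subset.

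Across genotypes, loss of STAT3 alone left none of the 10 genes past the threshold of the main test, though some passed under other settings, whereas in STAT3ko PD-1ko T cells 5 of them fell in CD4+ and 8 in CD8+ T cells as compared with WT. Between STAT3ko and WT, 0 of 10 were called in either subset by edgeR's quasi-likelihood test, against a background of 0.334% of all genes tested in CD4+ and 0.0583% in CD8+ T cells. At an unadjusted p under 0.05 there were 5 of 10 in each subset, where 10.5% of all genes were in CD4+ and 11% in CD8+ T cells. Itga4 was called in CD4+ T cells with DESeq2 (background 2.27%), with all genes with at least 1 count (0.984%), and with all 12 libraries fitted together (1.33%). Itga1, lower in STAT3ko, and Itgb1, higher, were called in CD8+ T cells with DESeq2 (background 1.97%) and with all genes with at least 1 count (0.391%). With the replicate number as a block, 2 were called in CD4+ T cells, Itga4 and Itgb1, both higher in STAT3ko (background 1.08% higher and 2.53% in either direction). Between STAT3ko PD-1ko and WT CD4+ T cells, 5 of 10 were called, all lower (Itga1, Itga2, Itgae, Itgb1, and Itgb7), where 5.65% of all genes were called lower and 12.9% in either direction. In CD8+ T cells, 8 of 10 were called, all lower, where 8.21% of all genes were called lower and 17.2% in either direction. The exceptions were Itgb1 and Itgav. Between STAT3ko PD-1ko and STAT3ko, 5 of 10 were called lower in CD4+ T cells (Itga1, Itga2, Itga4, Itgae, and Itgb1, background 5.03%, 11.1% in either direction), and 9 were called lower (background 8.05%) and 1, Itgav, higher (background 8.76%, 16.8% in either direction) in CD8+ T cells. The median log2 fold change of the 10 genes against WT was -0.48 in CD4+ and -0.55 in CD8+ STAT3ko PD-1ko T cells, against -0.01 and -0.00 for all genes tested. With the replicate block, which is given for CD4+ T cells because their same-numbered libraries deviated together, 7 of 10 were lower as compared with WT, with Itga6 and Itgb2 added (background 12.2% lower and 26% in either direction). As compared with STAT3ko, 8 were lower (background 12.8%) and 1, Itgav, was higher (background 13.2%), with Itga6, Itgb2, Itgb7, and Itgav added and 26% of all genes called. The comparisons with WT and with STAT3ko share the STAT3ko PD-1ko libraries, and those of STAT3ko and STAT3ko PD-1ko with WT share the WT libraries.

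These counts depended on single pools. For STAT3ko PD-1ko against WT in CD4+ T cells, the 5 calls became 3 without WT replicate 1, 3 without STAT3ko PD-1ko replicate 1, and 0 without STAT3ko PD-1ko replicate 2, and in CD8+ T cells the 8 calls became 4 and 5 without WT replicate 1 and 2, and 5 and 2 without STAT3ko PD-1ko replicate 1 and 2. For STAT3ko PD-1ko against STAT3ko, the 5 calls in CD4+ T cells became 0 without either STAT3ko PD-1ko pool, and the 10 in CD8+ T cells became 6 and 5 without STAT3ko replicate 1 and 2 and 0 without STAT3ko PD-1ko replicate 2. Calls over all genes fell in the same fits. For STAT3ko PD-1ko against WT, the 1538 in CD4+ T cells became 62 to 676 and the 2066 in CD8+ T cells 111 to 1107, and against STAT3ko the 1324 became 0 to 1185 and the 2017 became 2 to 1194, in each case fewest without STAT3ko PD-1ko replicate 2. Leaving out a pool leaves 2 residual degrees of freedom, and a lone library is then assumed to vary like the other groups. No log2 fold change with an unadjusted p under 0.05 changed sign under any alternative.

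**Figure D2:**
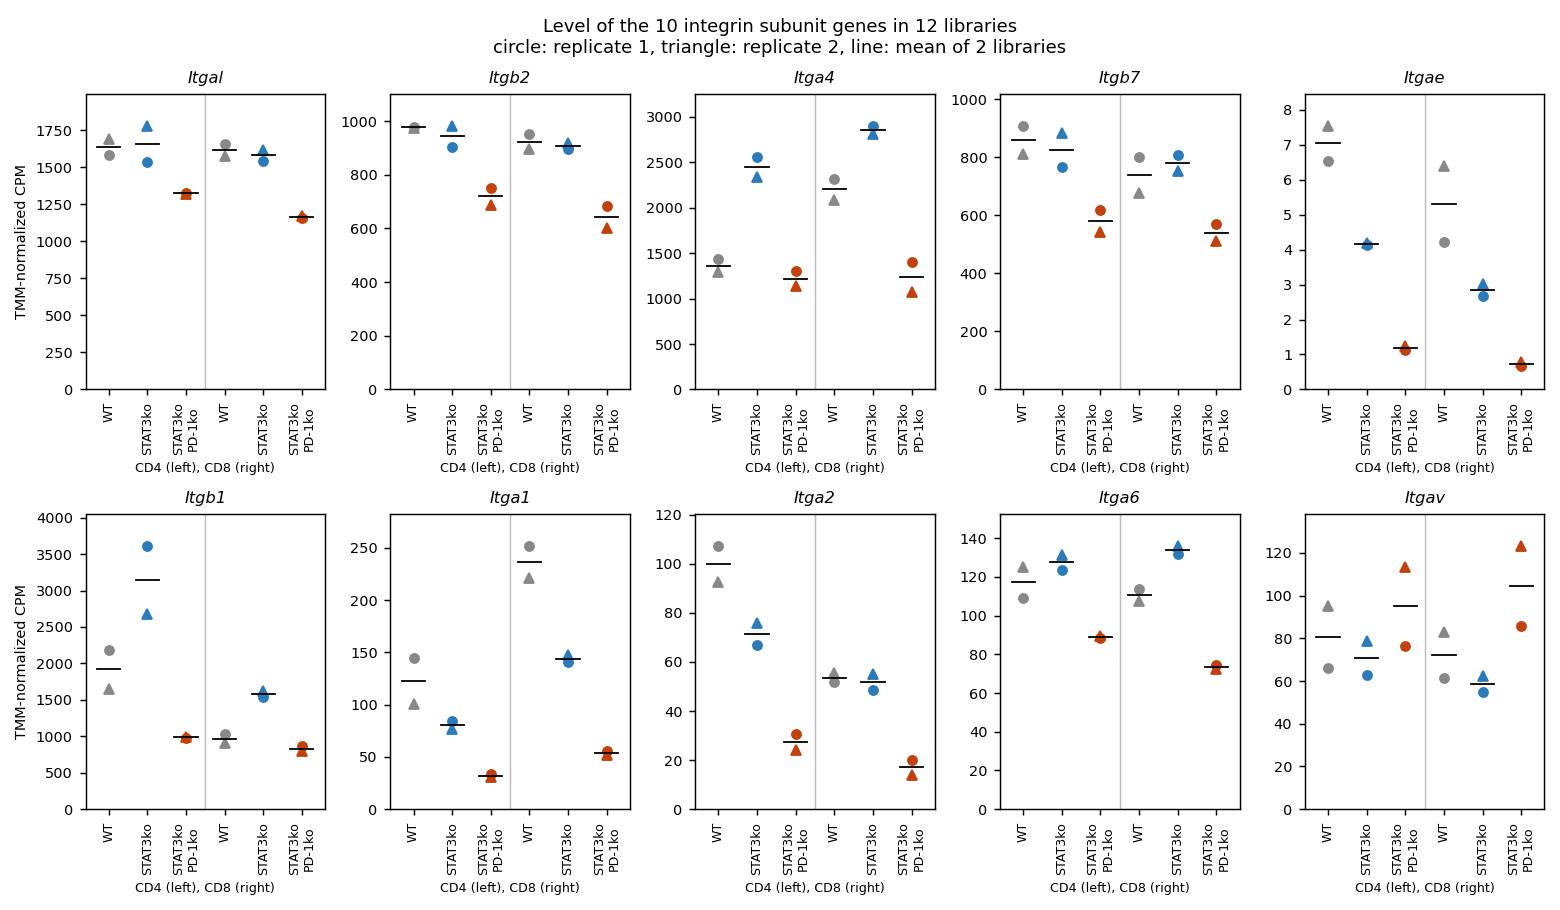
Level of each of the 10 integrin genes (TMM-normalized CPM, linear axis from 0) in every library, with CD4 groups left and CD8 groups right of the grey line and a bar at the mean of 2 libraries. Itga1, Itga2, and Itgae step down from WT to STAT3ko PD-1ko in both subsets, Itga4 and Itgb1 are highest in STAT3ko, and Itgav is highest in STAT3ko PD-1ko.

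**Figure D3:**
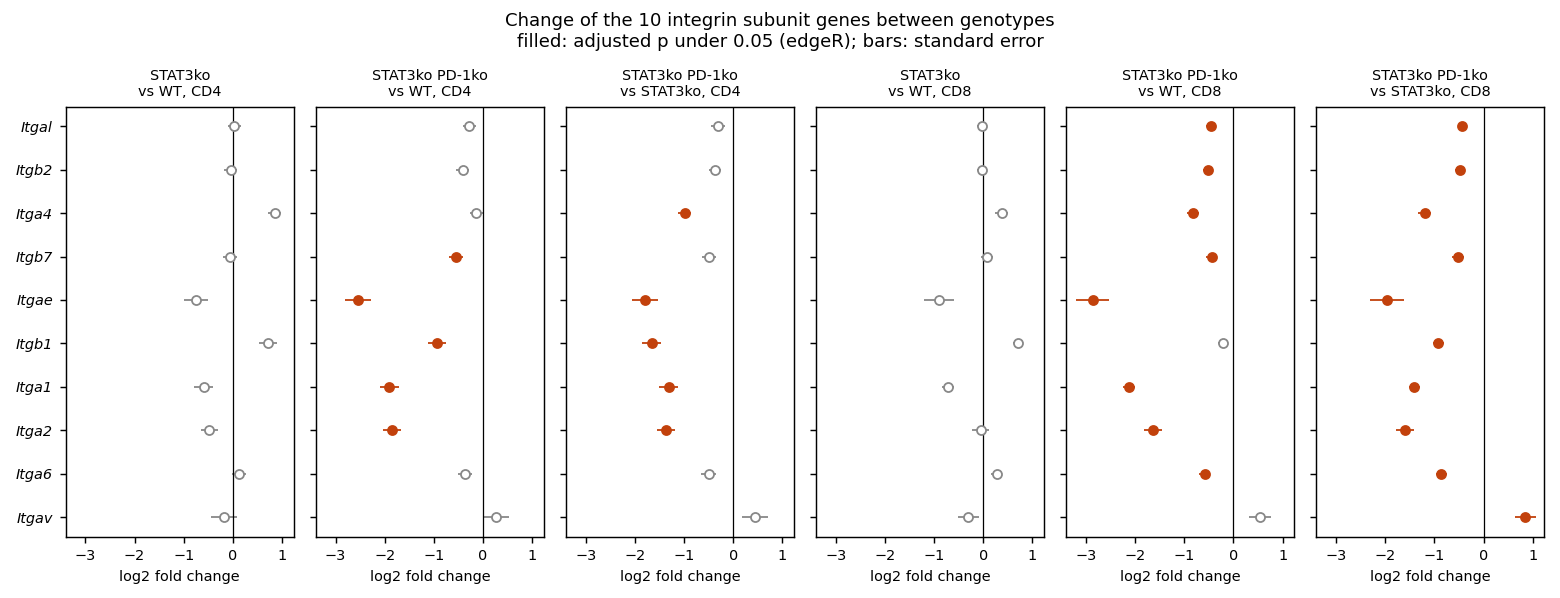
Log2 fold change of each integrin gene with its standard error in the 6 genotype comparisons, filled where the adjusted p from edgeR without a block was under 0.05. No point is filled for STAT3ko against WT, and all 10 are filled for STAT3ko PD-1ko against STAT3ko in CD8+ T cells.

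The collagen-binding subunits fell in both subsets of STAT3ko PD-1ko T cells. Itga1 was at 144 and 101 CPM in WT, 84.7 and 77.0 in STAT3ko, and 33.8 and 30.7 in STAT3ko PD-1ko CD4+ T cells. The CD8+ libraries had 252 and 222, 141 and 147, and 55.7 and 52.1 CPM of Itga1. The 3 genotypes did not overlap in either subset, and WT was the highest and STAT3ko PD-1ko the lowest. Such separation was common among all genes tested. Between STAT3ko and WT, libraries did not overlap for 38.2% of all genes in CD4+ and 43.6% in CD8+ T cells. Between STAT3ko PD-1ko and either other genotype, this held for 59.2% to 63.1% of all genes. These shares stand beside every separation of libraries given below. Against WT, Itga1 fell by 1.90 (SE 0.20, adjusted p = 0.00368) in CD4+ and by 2.12 (SE 0.12, adjusted p = 0.000901) in CD8+ STAT3ko PD-1ko T cells on the log2 scale. In STAT3ko T cells its log2 fold change was -0.60 (SE 0.19, adjusted p = 0.301) in CD4+ and -0.72 (SE 0.12, adjusted p = 0.14) in CD8+ T cells, neither past the threshold. Itga2 was at 107 and 92.6 CPM in WT, 66.9 and 75.8 in STAT3ko, and 30.6 and 23.9 in STAT3ko PD-1ko CD4+ T cells, and at 52.0 and 55.3, 48.4 and 55.0, and 19.98 and 14.1 CPM in CD8+ T cells. Here the genotypes were separate in CD4+ T cells, but WT and STAT3ko overlapped in CD8+ T cells. Itga2 fell by 1.85 (SE 0.18, adjusted p = 0.00321) in CD4+ and by 1.65 (SE 0.18, adjusted p = 0.00438) in CD8+ STAT3ko PD-1ko T cells as compared with WT, and by 1.37 (adjusted p = 0.00865) and 1.59 (adjusted p = 0.00469) as compared with STAT3ko. With STAT3ko PD-1ko replicate 2 of CD4+ T cells left out, neither gene was called against WT in that subset (edgeR, adjusted p = 0.0583 for Itga1 and 0.0509 for Itga2).

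The laminin-binding subunit fell in CD8+ STAT3ko PD-1ko T cells. Itga6 was at 109 and 125 CPM in WT, 123 and 132 in STAT3ko, and 88.6 and 89.7 in STAT3ko PD-1ko CD4+ T cells, and at 114 and 108, 132 and 136, and 74.3 and 72.2 CPM in CD8+ T cells. STAT3ko PD-1ko was below both other genotypes in each subset. Itga6 fell by 0.59 (SE 0.11, adjusted p = 0.0149) as compared with WT and by 0.86 (SE 0.11, adjusted p = 0.00644) as compared with STAT3ko in CD8+ T cells. In CD4+ T cells the log2 fold changes were -0.37 (adjusted p = 0.145) and -0.50 (adjusted p = 0.0707), and both passed with the replicate block (adjusted p = 0.0485 and 0.018).

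Itgb1, the beta subunit shared by these receptors, did not follow the same order. It was at 2191 and 1645 CPM in WT, 3616 and 2681 in STAT3ko, and 982 and 989 in STAT3ko PD-1ko CD4+ T cells. Itgb1 in CD8+ T cells was at 1027 and 910.0, 1540.3 and 1623, and 867 and 794 CPM. STAT3ko libraries were thus the highest in each subset, and in CD8+ T cells WT and STAT3ko PD-1ko lay close together without overlap. As compared with STAT3ko, Itgb1 fell by 1.66 (SE 0.19, adjusted p = 0.00693) in CD4+ and by 0.92 (SE 0.10, adjusted p = 0.00454) in CD8+ STAT3ko PD-1ko T cells. As compared with WT it fell by 0.94 (SE 0.19, adjusted p = 0.02) in CD4+ T cells. The log2 fold change of STAT3ko against WT was 0.72 (SE 0.19, adjusted p = 0.215) in CD4+ and 0.71 (SE 0.10, adjusted p = 0.12) in CD8+ T cells, and the former was called with the replicate block (adjusted p = 0.0389), the latter with DESeq2 and with a looser filter.

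Itga4, which pairs with Itgb1 or Itgb7, showed a like order. It was at 1431 and 1289.8 CPM in WT, 2557 and 2339 in STAT3ko, and 1303 and 1136 in STAT3ko PD-1ko CD4+ T cells. Itga4 in CD8+ T cells was at 2315 and 2089, 2901 and 2812, and 1399.6 and 1075 CPM. In CD4+ T cells the STAT3ko libraries stood apart while WT and STAT3ko PD-1ko overlapped, whereas in CD8+ T cells the 3 genotypes were separate. As compared with STAT3ko, Itga4 fell by 0.99 (SE 0.13, adjusted p = 0.00882) in CD4+ and by 1.20 (SE 0.13, adjusted p = 0.00433) in CD8+ STAT3ko PD-1ko T cells, and as compared with WT by 0.82 (SE 0.13, adjusted p = 0.0101) in CD8+ T cells. The log2 fold change of STAT3ko against WT was 0.85 (SE 0.13, adjusted p = 0.0583) in CD4+ T cells, where it passed with the replicate block (adjusted p = 0.00911), and 0.37 (SE 0.13, adjusted p = 0.374) in CD8+ T cells.

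The beta subunit of the gut and epithelial receptors fell modestly, and its other partner fell steeply from a low level. Itgb7 was at 907 and 812 CPM in WT, 768 and 882 in STAT3ko, and 616 and 544 in STAT3ko PD-1ko CD4+ T cells, and at 801 and 678, 808 and 754, and 570.1 and 509.8 CPM in CD8+ T cells. WT and STAT3ko overlapped in both subsets, and STAT3ko PD-1ko was below both. Itgb7 fell by 0.55 (SE 0.15, adjusted p = 0.0494) in CD4+ and by 0.44 (SE 0.12, adjusted p = 0.0417) in CD8+ STAT3ko PD-1ko T cells as compared with WT. Both calls lay at the edge of the threshold. The call in CD4+ T cells was lost under 2 and that in CD8+ T cells under 3 of the alternatives that keep all libraries, with adjusted p-values of 0.0581 to 0.0736. Itgae was at 6.55 and 7.54 CPM in WT, 4.14 and 4.18 in STAT3ko, and 1.13 and 1.23 in STAT3ko PD-1ko CD4+ T cells, and at 4.23 and 6.39, 2.68 and 3.03, and 0.663 and 0.776 CPM in CD8+ T cells. The last values stand for 15 and 19 counts, so that Itgae was near the limit of detection there. Itgae fell by 2.55 (SE 0.27, adjusted p = 0.00389) in CD4+ and by 2.87 (SE 0.34, adjusted p = 0.00493) in CD8+ STAT3ko PD-1ko T cells as compared with WT. On the log2(RPKM + 1) scale the fall of Itgae in CD8+ T cells was much smaller, as given at the end. The log2 fold changes of Itgae in STAT3ko T cells, -0.75 (adjusted p = 0.304) in CD4+ and -0.90 (adjusted p = 0.358) in CD8+, did not pass the threshold.

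Both genes of LFA-1 fell modestly in CD8+ STAT3ko PD-1ko T cells. Itgal was at 1587 and 1689.6 CPM in WT, 1540.1 and 1781 in STAT3ko, and 1328 and 1320.1 in STAT3ko PD-1ko CD4+ T cells, and at 1656 and 1577, 1547 and 1621, and 1159.7 and 1169.5 CPM in CD8+ T cells. Itgb2 was at 979.6 and 973, 904 and 982, and 752 and 688 CPM in CD4+ T cells, and at 950.0 and 895, 897 and 918, and 684 and 602 CPM in CD8+ T cells, in the same order of genotypes. WT and STAT3ko overlapped for both genes in both subsets, and the STAT3ko PD-1ko libraries were the lowest. Itgal fell by 0.46 (SE 0.09, adjusted p = 0.0165) and Itgb2 by 0.51 (SE 0.10, adjusted p = 0.0182) as compared with WT in CD8+ T cells. In CD4+ T cells, neither was called, and the log2 fold change of Itgb2 against WT was -0.42 (SE 0.13, adjusted p = 0.0749, and 0.0284 with the replicate block). The level per kb of Itgal stood to that of Itgb2 at 0.942 ± 0.0463 in WT and 1.03 ± 0.0611 in STAT3ko PD-1ko CD4+ T cells, and at 0.984 ± 0.00737 and 1.02 ± 0.0974 in CD8+ T cells (SD, n = 2). In CD4+ T cells the ratio was higher in STAT3ko PD-1ko than in WT for both replicate numbers, at 0.992 against 0.909 and 1.08 against 0.975. In CD8+ T cells it was lower for replicate 1, at 0.952 against 0.979, and higher for replicate 2, at 1.09 against 0.989. These differences were not tested.

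Itgav went the other way. It was at 66.3 and 95.0 CPM in WT, 63.0 and 79.0 in STAT3ko, and 76.6 and 114 in STAT3ko PD-1ko CD4+ T cells, where all groups overlapped and only the difference from STAT3ko passed with the replicate block (0.42, adjusted p = 0.0378). In CD8+ T cells it was at 61.5 and 83.0 in WT, 54.9 and 62.2 in STAT3ko, and 85.8 and 123 CPM in STAT3ko PD-1ko. Replicate 2 was above replicate 1 in all 6 groups. In CD8+ T cells, Itgav rose by 0.85 (SE 0.22, adjusted p = 0.0404) as compared with STAT3ko, a call that was lost under 3 of the alternatives that keep all libraries, with adjusted p-values of 0.0525 to 0.0625. Against WT its log2 fold change was 0.54 (SE 0.22, adjusted p = 0.128).

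CD8+ and CD4+ T cells of the same genotype differed in 1 to 4 of these genes in the fit without a block. In WT, 4 of 10 were called, where 10.5% of all genes were called, 4.91% higher and 5.59% lower. Itga1 was higher by 0.95 (SE 0.16, adjusted p = 0.00491) and Itga4 by 0.69 (SE 0.14, adjusted p = 0.00979) on the log2 scale in CD8+ T cells, whereas Itga2 had a log2 fold change of -0.90 (SE 0.18, adjusted p = 0.0114) and Itgb1 of -0.99 (SE 0.17, adjusted p = 0.00411). In STAT3ko, 2 were called (background 9.62%, 4.81% higher and 4.82% lower), Itga1 (0.83, SE 0.16, adjusted p = 0.0109) and Itgb1 (-0.99, SE 0.17, adjusted p = 0.00467). In STAT3ko PD-1ko, 1 was called (background 4.14%, 1.65% higher), Itga1 (0.74, SE 0.17, adjusted p = 0.0342). With a block for genotype and replicate number, the same 4 were called in WT (background 24.3%). In STAT3ko 4 were called, with Itga2 (-0.46, adjusted p = 0.0106) and Itgav (-0.27, adjusted p = 0.0457) added (background 24.9%), and in STAT3ko PD-1ko 2, with Itga2 (-0.69, adjusted p = 0.00413) added (background 14.4%). Without the block, the 4 calls in WT became 2 without WT CD8 replicate 1. The 2 in STAT3ko became 1 without STAT3ko CD4 replicate 2, 0 without STAT3ko CD8 replicate 1, and 1 without STAT3ko CD8 replicate 2, and the call in STAT3ko PD-1ko was lost without any of its 4 libraries. Calls over all genes between the subsets also fell in each fit without a library, in all 3 genotypes. The adjacent genes Itga1 and Itga2 thus differed between subsets in opposite directions in WT, and the level per kb of Itga1 stood to that of Itga2 at 1.45 ± 0.211 in WT CD4+ and 5.26 ± 0.711 in WT CD8+ T cells (SD, n = 2).

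**Figure D4:**
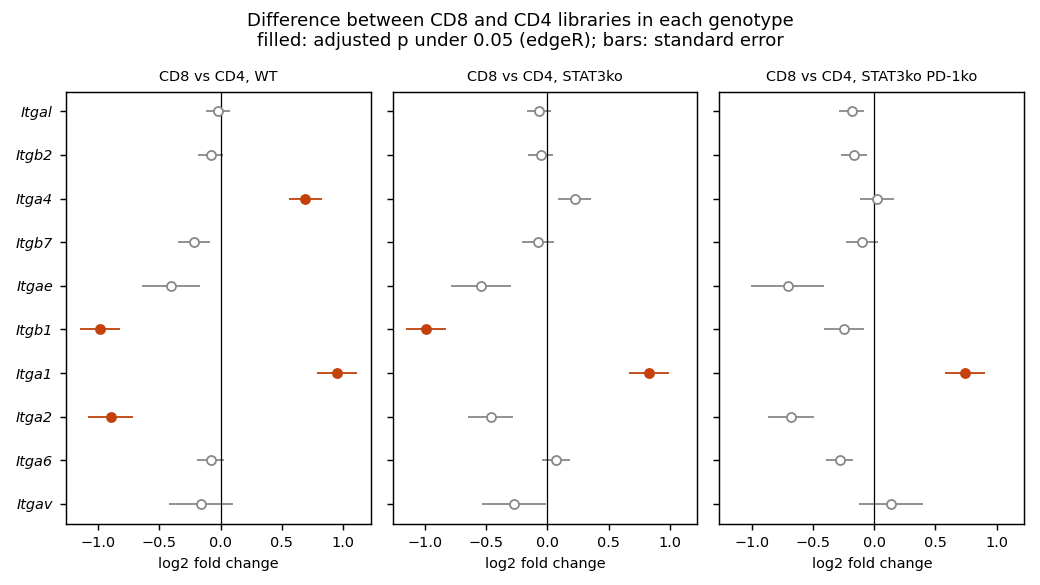
Log2 fold change of CD8 over CD4 libraries with its standard error for the 10 integrin genes in each genotype, filled where the adjusted p from edgeR was under 0.05. Itga1 is filled to the right in all 3 genotypes, and Itgb1 to the left in WT and STAT3ko.

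Whether a genotype acted differently in the subsets was asked with interaction terms, fitted over all 12 libraries. None of the 10 genes was called for STAT3ko against WT, for STAT3ko PD-1ko against WT, or for STAT3ko PD-1ko against STAT3ko, by edgeR's quasi-likelihood test or DESeq2, where 0%, 0.00811%, and 0% of all genes were called by edgeR and 0.0405%, 0.608%, and 0.197% by DESeq2. At an unadjusted p under 0.05 there were 1, 2, and 2 of the 10, where 1.85%, 4.43%, and 3.59% of all genes were. The change of Itga4 against WT in STAT3ko PD-1ko differed between CD8+ and CD4+ T cells by -0.67 (SE 0.19, unadjusted p = 0.00579, adjusted p = 0.452), and that of Itgb1 by 0.74 (SE 0.23, unadjusted p = 0.00946, adjusted p = 0.572). These terms ignore that the 2 subsets of a genotype were taken as paired. With a block for genotype and replicate number none of the 10 was called either, where 0%, 0.681%, and 0.178% of all genes were, and 2, 3, and 3 had an unadjusted p under 0.05, where 5.12%, 10.7%, and 9.84% of all genes did. The difference for Itga4 against WT in STAT3ko PD-1ko was then -0.68 (SE 0.12, adjusted p = 0.0508), just outside the threshold, with -0.59 and -0.77 within the 2 replicate numbers. That for Itgb1 was 0.73 (SE 0.18, adjusted p = 0.125), with 0.91 and 0.54. Itga4 differing from WT in CD8+ and Itgb1 in CD4+ T cells thus did not pass the test of a difference between subsets with or without the block, which does not show that the subsets acted alike.

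The genes whose profile over the 12 libraries lay nearest to the 3 most variable members were searched among 8606 genes, by the mean absolute difference of log2 CPM after centring each gene. For Itga2 they were F2rl2 (0.115), Chst10 (0.124), and Slc9a9 (0.164). For Itga1 they were Gdf11 (0.235), Slc14a1 (0.257), and Klk8 (0.285), and for Itgae they were Arl4c (0.214), Gsn (0.242), and F2rl1 (0.250). F2rl1 and F2rl2, which encode protease-activated receptors, lie on chromosome 13 like Itga1 and Itga2, far from both genes.

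Of the 17 other integrin subunits, 12 passed the filter, and the largest changes were in beta 2 partners outside LFA-1. Itgax, known as CD11c, was at 70.5 and 62.2 CPM in WT, 25.9 and 27.7 in STAT3ko, and 4.98 and 5.72 in STAT3ko PD-1ko CD4+ T cells, and at 392 and 363, 220.5 and 243, and 27.8 and 20.2 CPM in CD8+ T cells. The genotypes were separate in both subsets. Itgax fell by 3.61 (adjusted p = 0.00106) in CD4+ and by 3.97 (adjusted p = 0.000767) in CD8+ STAT3ko PD-1ko T cells as compared with WT, and by 1.30 (adjusted p = 0.0377) in STAT3ko CD4+ T cells. Itgam, known as CD11b, fell by 2.41 (adjusted p = 0.00398) and by 3.21 (adjusted p = 0.000901) in CD4+ and CD8+ STAT3ko PD-1ko T cells as compared with WT. Itgad, at 3.36 and 2.37 CPM in WT and 0.822 and 0.397 in STAT3ko PD-1ko CD4+ T cells, fell by 2.21 (adjusted p = 0.017), and in CD8+ T cells it fell by 1.33 (adjusted p = 0.0421). Itgax and Itgam are also expressed by macrophages, dendritic cells, and NK cells. The NK cell markers of CD8+ T cells were lower in STAT3ko PD-1ko too, as given above, and the macrophage markers had a median of -2.27 in CD4+ and -2.48 in CD8+ T cells against WT. Of the 7 macrophage markers tested, edgeR without a block called 0, with 1 and 0 at an unadjusted p under 0.05. With the replicate block it called Clec4f and Csf1r lower in CD4+ T cells, where 12.2% of all genes were called lower. The 9 macrophage markers summed to 1.13 and 1.23 CPM in CD4+ and to 0.972 and 1.14 CPM in CD8+ STAT3ko PD-1ko T cells. WT replicate 1 was close to these sums, at 1.05 and 1.11 CPM, and only WT replicate 2 stood above them, at 9.95 and 9.43 CPM. The part of these markers in the values of Itgax and Itgam was not tested. In WT CD8+ T cells Itgax stood at 392 CPM in the pool whose 9 macrophage markers summed to 1.11 CPM, and at 363 CPM where they summed to 9.43 CPM. In WT CD4+ T cells it was 70.5 at 1.05 and 62.2 at 9.95 CPM. STAT3ko went the other way, with 220.5 at 0.518 and 243 at 6.83 CPM in CD8+ T cells. In STAT3ko CD4+ T cells it was 25.9 at 1.55 and 27.7 at 7.42 CPM. Itgb3, a partner of Itgav in the vitronectin receptor, was at 178 and 176 CPM in WT and 324 and 385 in STAT3ko PD-1ko CD4+ T cells, and at 159 and 165 against 363 and 469 CPM in CD8+ T cells. It rose by 1.03 (SE 0.18, adjusted p = 0.0142) and by 1.37 (SE 0.14, adjusted p = 0.00393). Itga3 rose in CD8+ STAT3ko PD-1ko as compared with STAT3ko T cells, by 0.89 (adjusted p = 0.0143). Itga2b, Itga5, Itga7, Itga9, Itga10, Itgb4, and Itgb5 passed the filter without a call between genotypes when no block was used, and Itga8, Itga11, Itgb2l, Itgb6, and Itgb8 did not pass it. With the replicate block in CD4+ T cells, Itga3 was called lower in STAT3ko than in WT (-1.35, adjusted p = 0.0399), Itgb4 higher in STAT3ko PD-1ko than in WT (1.81, adjusted p = 0.0297) and than in STAT3ko (1.82, adjusted p = 0.0306), and Itga7 higher in STAT3ko PD-1ko than in STAT3ko (1.25, adjusted p = 0.0243).

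**Figure D5:**
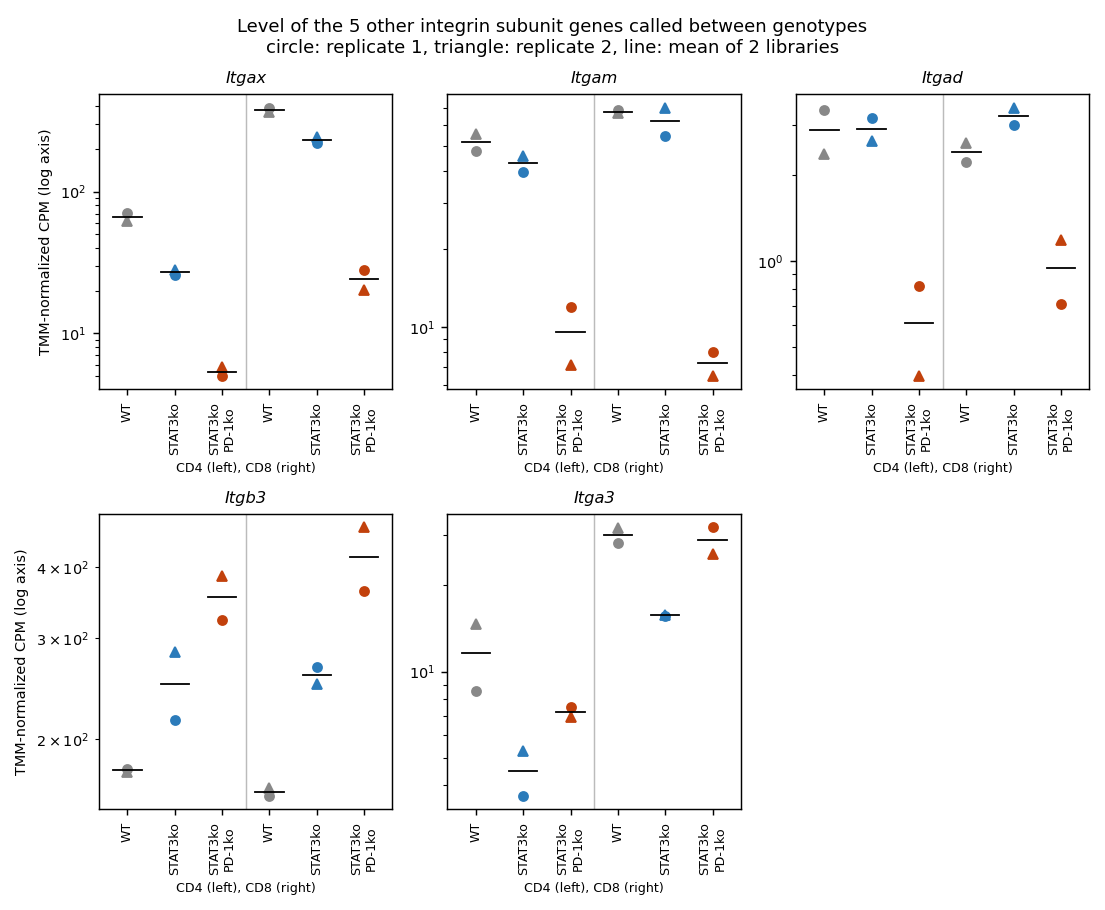
Level (TMM-normalized CPM, log axis) of the 5 other integrin subunit genes called in a genotype comparison, in each of the 12 libraries with a bar at the mean of 2. Itgax, Itgam, and Itgad are lowest in STAT3ko PD-1ko in both subsets, whereas Itgb3 is highest there.

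Genes that regulate integrin activation, in either direction, included more that were called lower than higher in STAT3ko PD-1ko T cells. Of the 21 tested, 4 were lower and 1 higher in CD4+ T cells as compared with WT, and 9 were lower and 1 higher in CD8+ T cells, with medians of -0.28 and -0.45, where 5.65% and 8.21% of all genes were called lower. The replicate block gave 8 lower and 1 higher in CD4+ T cells, where it called 12.2% of all genes lower. The 4 genes lower in CD4+ T cells were also lower in CD8+ T cells. They were Rasgrp1, an exchange factor of the Ras and Rap family (-0.92 and -1.05), the adaptor Skap1 (-0.91 and -0.96), Cyth1, which binds the tail of Itgb2 (-0.85 and -0.82), and Rasa3, a GTPase-activating protein that restrains Ras and Rap1 (-0.75 and -0.78). The gene that was higher was Tln2, a talin. Rasa3, a brake, thus fell beside activators, and it fell by 1.20 (adjusted p = 0.00449) in CD8+ T cells as compared with STAT3ko.

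Of 16 tested genes of integrin signalling and of its link to actin, 3 rose and 1 fell in CD4+ T cells as compared with WT, and 1 rose and 4 fell in CD8+ T cells, where 12.9% and 17.2% of all genes were called in either direction. The replicate block gave 3 higher and 3 lower (Fyn, Nedd9, and Zyx) in CD4+ T cells, where it called 26% of all genes. Actn1 (alpha-actinin) and Vcl (vinculin) rose by 0.91 (adjusted p = 0.00891) and 0.72 (adjusted p = 0.0378) in CD4+ STAT3ko PD-1ko T cells, and the kinase gene Fyn fell by 0.81 (adjusted p = 0.00666) in CD8+ T cells and, with the replicate block, by 0.46 (adjusted p = 0.0159) in CD4+ T cells. Tns1 (tensin) rose by 1.5 (adjusted p = 0.0128) in CD4+ T cells as compared with STAT3ko. Of the integrin ligands, 14 were tested in CD4+ and 11 in CD8+ T cells, and 1 was called higher (Nid1) and 1 lower (Cdh1) in CD4+, and 2 higher (Nid1 and Spp1) in CD8+ STAT3ko PD-1ko T cells as compared with WT, a share near that of all genes. With the replicate block 2 were called higher (Nid1 and Spp1) and 2 lower (Cdh1 and Lama5) in CD4+ T cells, beside the same 26% of all genes. Icam2 fell by 0.67 (adjusted p = 0.0447) in CD8+ T cells as compared with STAT3ko. Against WT, STAT3ko alone had no call in the activation, actin, or ligand lists in either subset without a block. At an unadjusted p under 0.05 there were 2 of 21, 3 of 16, and 3 of 14 genes in CD4+ T cells, where 10.5% of all genes were, and 3 of 21, 4 of 16, and 5 of 11 in CD8+ T cells, where 11% were. The replicate block gave 1 call in each of these lists in CD4+ T cells (Rasgrp2 higher, Tns1 and Lama5 lower), where it called 2.53% of all genes.

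Some genes of tissue residence and egress were also lower. Of 16 tested, 6 were called lower and 0 higher in each subset of STAT3ko PD-1ko T cells as compared with WT, with medians of -0.68 in CD4+ and -0.73 in CD8+ T cells, where 5.65% and 8.21% of all genes were called lower. In each subset the other 10 were not called, and the replicate block gave 8 lower and 1 higher (Prdm1) in CD4+ T cells, where it called 12.2% of all genes lower. 5 of them were shared, namely Cxcr6, Rara, S1pr1, Smad3, and Tgfbr2, so that receptors for staying in the liver (Cxcr6), for TGF-beta (Tgfbr2, with Smad3 below it), and for recirculation (S1pr1) were among them. Cxcr6 was at 811 and 674 CPM in WT and 287 and 153 in STAT3ko PD-1ko CD4+ T cells and fell by 1.74 (SE 0.28, adjusted p = 0.0106). Gpr15, a gut homing receptor, was at 24 and 8.76 against 1.21 and 0.477 CPM in CD4+ T cells and fell by 4.26 (SE 0.61, adjusted p = 0.00784). Rara, a receptor for retinoic acid, fell by 1.57 (adjusted p = 0.00778) in CD4+ and by 0.68 (adjusted p = 0.0208) in CD8+ T cells. Smad3 fell by 1.42 (SE 0.16, adjusted p = 0.00693) in CD4+ STAT3ko PD-1ko T cells as compared with STAT3ko. Runx3, which is also in the list, was not called in any genotype comparison without a block, and Cd69 was called lower with the replicate block in CD4+ STAT3ko PD-1ko T cells as compared with WT.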

How the data were processed

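RNA-Seq was measured in 12 libraries of sorted donor T cells from the liver. The authors aligned the reads to mm10 (named GRCm38 and mm10 in the submitters' processing notes) with STAR and deposited HTSeq counts on RefSeq genes, without normalization. The RPKM values that the authors also deposited, in which counts are scaled by gene length and library size, were used as an alternative. The labels carry a protocol for adipogenic cell culture and name another library kit than the study's methods, and these fields were not used. Counts were analysed in R (4.3.3) with edgeR (4.0.16), DESeq2 (1.42.0), limma (3.58.1), and data.table (1.17.8), and tabulated and drawn in Python (3.11.15) with pandas (2.3.3) and matplotlib (3.10.9).

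After filterByExpr (count of at least 10, total of at least 15) and TMM scaling, edgeR's quasi-likelihood test was run, with p-values adjusted by Benjamini-Hochberg over all genes and a threshold of 0.05. Genotypes were compared in a fit of the 6 libraries of each subset (11959 genes in CD4 and 12002 in CD8, 3 residual degrees of freedom). Comparisons between subsets and interactions used all 12 libraries (12334 genes, 6 residual degrees of freedom), with no block. Deviations of same-numbered libraries from their group means, in which the libraries shared a number in the labels but no stated batch, correlated across genes at 0.199 to 0.630 in the 3 pairs of CD4 groups, at 0.0601 to 0.651 in the 3 pairs of CD8 groups, and over 0.1 in 13 of all 15 pairs of groups. For CD8 and CD4 libraries of the same genotype they were 0.588 in WT, 0.583 in STAT3ko, and 0.646 in STAT3ko PD-1ko. The numbers were therefore taken to pair the CD4 libraries, and the 2 subsets of a genotype, and values with a replicate block (genotypes in CD4) or a pool block (subsets and interactions) are given beside the counts and calls of the integrins and gene lists that these change. With 2 libraries against 2, an exact permutation test cannot go below p = 0.333 (2-sided), so that none is given. Levels are CPM scaled by TMM over 12 libraries, also divided by exon length where genes are compared. The procedure was tested on simulated data with known changes. The simulated libraries varied independently, so that deviations shared by same-numbered libraries were not covered.

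The members and lists were chosen with earlier results of these data known. Named are the deleted genes, the members, up to 4 genes of each other list with the largest change among called genes whose mean log2 CPM reached 3, every other integrin subunit that passed the filter, and 3 nearest profiles for each of the 3 most variable members. Tln2, Nid1, Cdh1, Spp1, S1pr1, Tgfbr2, Prdm1, Rasgrp2, Lama5, Nedd9, Zyx, Egfl7, Cd79b, Clec4f, Csf1r, Runx3, Cd69, Klrb1c, Klre1, Klra8, Ncr1, and the other marker genes were named after their values were seen. Zfp683 of the residence list was not matched in the table, and 1 other gene of that list is not reported here and was left out of its counts. Alternatives were DESeq2, RLE scaling, all genes with at least 1 count, a replicate block, a block for the pool, all 12 libraries or only the 4 compared, log2(RPKM + 1) and log2(RPKM + 0.1) with limma at a mean RPKM of at least 0.1, and leaving out each library.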

Additional observations from a re-analysis of the deposited data

How the results depend on the processing

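Of the 35 calls of an integrin gene, 251 of 259 alternatives that keep all libraries made the same call, and 69 of 140 did so without a library. No called value reversed. Over all members and comparisons, 46 of 1380 alternatives had the other sign, none of them among results with an unadjusted p under 0.05. The counts of called integrins moved as follows, with the cause not tested. For STAT3ko against WT they were 0 in CD4+ T cells and 1 with all genes with at least 1 count, 1 with DESeq2, 1 with all 12 libraries fitted together, and 2 with the replicate block, and 0 in CD8+ T cells and 2 with all genes with at least 1 count and 2 with DESeq2. For STAT3ko PD-1ko against STAT3ko in CD4+ T cells, 5 became 9 with the replicate block and 9 with all 12 libraries. For CD8 against CD4, the 2 in STAT3ko became 4 with the pool block, which assumes that libraries of 1 genotype and replicate number share a pool. The 1 in STAT3ko PD-1ko became 2 with all genes with at least 1 count, the replicate block, DESeq2, and the pool block.

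Without 1 library at a time, calls for STAT3ko PD-1ko against WT ranged from 0 to 4 in CD4+ and from 2 to 5 in CD8+ T cells, and against STAT3ko from 0 to 5 and from 0 to 7. For CD8 against CD4 they ranged from 2 to 3 in WT, from 0 to 2 in STAT3ko, with 0 throughout in STAT3ko PD-1ko. For STAT3ko against WT they were 0 throughout in both subsets, as were the interactions. Over all genes, the replicate block gave 303, 3104, and 3105 calls in CD4+ T cells where the main design gave 40, 1538, and 1324 (STAT3ko against WT, then STAT3ko PD-1ko against WT and against STAT3ko). All 12 libraries gave 164, 2462, and 2299, and DESeq2 gave 271, 2165, and 2100. In CD8+ T cells the main counts were 7, 2066, and 2017, and DESeq2 gave 218, 2725, and 2813. The replicate block gave 9, 2965, and 2932 there. With all libraries kept, calls between subsets reached 2991 (WT, main 1294), 3077 (STAT3ko, main 1187), and 1774 (STAT3ko PD-1ko, main 511). In CD8+ T cells, where the replicate numbers were not taken to pair the libraries, the block added a call of Itgav against WT (0.54, adjusted p = 0.0227), and for CD8 against CD4 in STAT3ko PD-1ko it added Itga2 (-0.68, adjusted p = 0.0425). For Itgae the pseudocount sets the size of the change, which was -0.996 against WT in CD8+ T cells on the log2(RPKM + 1) scale, in place of -2.87. Itgae had 15 to 31 counts per STAT3ko PD-1ko library, and the other members were limited by the spread between pools.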
